A study of Sus scrofa with 12 samples.

Results

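The expression and m6A peaks of 10 Krüppel-like factor genes were examined in IPEC-J2, an epithelial cell line from pig small intestine: KLF2, KLF3, KLF4, KLF5, KLF6, KLF7, KLF9, KLF10, KLF11 and KLF13. They were chosen by symbol, and every m6A peak that the deposited peak table lists under these 10 genes was taken. This gave 29 peaks of 25055 distinct peaks in the table, with none of the 29 listed under a further gene. All 10 genes also had an entry among the 20889 genes of the deposited expression table. Cells labelled WT were kept for 24 h with 25 µM of the compound that the labels call OAA (OAA) or with 0 µM (CON). Each treatment had 3 numbered replicates, and each replicate had a library labelled input and a library labelled IP, which made 12 libraries in 4 groups. The labels give no further treatment and 1 batch for all libraries. They do not say whether the replicates were grown separately, so the p-values cover variation among these samples only, some or all of which can be technical.

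Krüppel-like factors are zinc finger transcription factors that bind GC-rich and CACCC elements through a conserved carboxy-terminal DNA-binding domain, while their diverse amino-terminal parts recruit coactivators or corepressors. In the intestine KLF5 is known from proliferating crypt cells and KLF4 from differentiated cells nearer the lumen, where it restrains proliferation. Many of these mRNAs are short-lived, and N6-methyladenosine (m6A), a base modification often found near stop codons and in 3′ UTRs, is read by proteins such as YTHDF2 that speed decay of mRNA. MeRIP-seq sequences RNA fragments bound by an m6A antibody beside unselected fragments of the same RNA.

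Libraries labelled input held 19.0 to 21.5 M reads in peaks in OAA and 16.5 to 23.0 M in CON, and libraries labelled IP held 4.36 to 4.61 M in OAA and 3.71 to 4.46 M in CON. These sums leave out reads outside peaks. The library titles conflict with the authors' deposited log2 ratios on which libraries were bound by the antibody. Over 24145 peaks, which are not independent replicates, the authors' ratios correlated with those computed here as labelled input over labelled IP at r = 0.996 in OAA and in CON. Groups are named here by their labels. The term "peak ratio" stands for the log2 ratio of labelled input to labelled IP, relative to the typical peak. Should the titles be right, antibody enrichment relative to the typical peak has the opposite sign. The sign of a peak ratio places a peak against the typical peak and does not by itself show enrichment or depletion. Differences between OAA and CON within one label keep their sign either way. The 29 KLF peaks took 0.334 to 0.353% of reads in peaks in the OAA libraries labelled input and 0.194 to 0.207% in the OAA libraries labelled IP, against 0.342 to 0.351% and 0.203 to 0.207% in the same kinds of CON library.

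FPKM were deposited for the libraries labelled IP, and they placed the 10 genes in steps. Should the titles be right, these values, those of the lists and cell markers included, are of antibody-bound RNA and not transcript levels. KLF6, an early response gene and growth suppressor, had 48.5, 51.5 and 53.3 FPKM in OAA, against 53.0, 54.1 and 54.4 FPKM in CON. KLF5 had 49.6, 49.9 and 54.2 FPKM in OAA, against 54.2, 52.6 and 53.3 FPKM in CON. KLF10, a repressor first known as a gene induced early by TGF-beta, had 49.6, 46.8 and 47.6 FPKM in OAA, against 54.7, 50.8 and 48.9 FPKM in CON. The ranges of these genes overlapped one another, and OAA and CON overlapped in each. KLF4 stood lower, at 14.8, 16.9 and 13.2 FPKM in OAA, against 16.3, 16.1 and 17.8 FPKM in CON, apart from its neighbours on both sides.

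KLF7, a widely expressed factor known for neuronal outgrowth, averaged 9.63 ± 0.184 FPKM in OAA and 9.56 ± 1.08 FPKM in CON (SD, n = 3 each). KLF3, a repressor that recruits CtBP, averaged 8.95 ± 0.33 and 8.98 ± 0.783 FPKM in OAA and CON, and its range overlapped that of KLF7. KLF13 and KLF9, repressors that bind SIN3A, came next with overlapping ranges, at 7.17 ± 0.235 FPKM for KLF13 and 6.64 ± 0.519 FPKM for KLF9 in OAA, against 6.99 ± 0.113 FPKM for KLF13 and 6.78 ± 0.297 FPKM for KLF9 in CON. KLF2, best known from flow-exposed endothelium and resting T cells, had 1.75, 2.08 and 1.11 FPKM in OAA, against 1.30, 1.41 and 2.37 FPKM in CON. KLF11, the close relative of KLF10, averaged 1.50 ± 0.0534 FPKM in OAA and 1.38 ± 0.151 FPKM in CON. KLF2 and KLF11 overlapped each other and lay below the other 8 genes.

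None of the 10 genes was called between OAA and CON in FPKM by limma on log2(FPKM + 1) at an adjusted p under 0.05, and none had an unadjusted p under 0.05. Among all 10763 genes tested, 0% were called higher and 0% lower, with 356 genes at an unadjusted p under 0.05. Log2 differences on that scale, which understates changes of low genes, ran from -0.15 for KLF4 (95% interval -0.35 to 0.04) to 0.07 for KLF11 (95% interval -0.14 to 0.29). Of the 10 genes, 7 were below 0 and 3 above, with a median of -0.02, against -0.01 over all genes tested. The interval was widest for KLF2, from -0.41 to 0.37. In such bulk libraries, fewer cells with a transcript and less of it per cell cannot be told apart, nor, should the titles be right, either of these from less antibody-bound RNA.

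**Figure D1:**
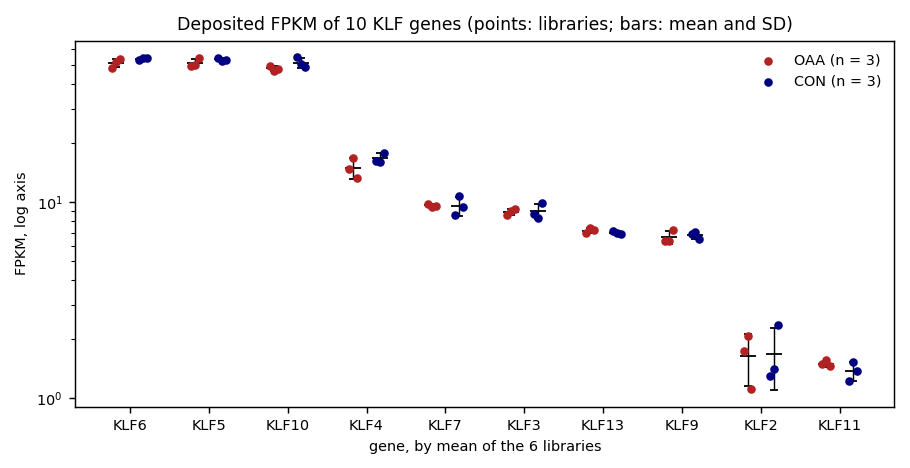
Deposited FPKM of the 10 KLF genes on a log axis, in genes ordered by their mean over the 6 libraries with FPKM. Points are libraries, OAA left of CON, and bars are the mean and SD (n = 3 each). KLF6, KLF5 and KLF10 lie between 46.8 and 54.7 FPKM, and KLF2 and KLF11 between 1.11 and 2.37 FPKM.

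Coordinates are those of the deposited table, which names no genome build, and peaks are numbered from the 5′ end of each gene. KLF5 (chromosome 11) had a start-codon peak at 45369797 to 45369896, a second from the start codon through coding sequence at 45370147 to 45373514, and a stop-codon peak at 45386613 to 45386987. On KLF4 (chromosome 1), a 5′ UTR peak lay at 248609140 to 248609564, and one peak at 248605295 to 248607958 took in both start and stop codons. KLF6 (chromosome 10) had peaks from 5′ UTR into coding sequence at 66488466 to 66491638, in coding sequence at 66491664 to 66493563, and in the 3′ UTR at 66495243 to 66495592. The 3 peaks of KLF10 (chromosome 4) covered the start codon at 34430182 to 34430256, the start codon and coding sequence at 34430282 to 34433019, and the stop codon at 34433417 to 34434937. These spans are stretches of chromosome and can hold introns.

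KLF3 (chromosome 8) had a 5′ UTR peak at 30024997 to 30025071, a coding peak at 30047551 to 30047675, a stop-codon peak at 30054212 to 30057358 and a 3′ UTR peak at 30058884 to 30059158. On KLF7 (chromosome 15), a coding peak stretched over 83124 bp from 110295944 to 110379067, and a stop-codon peak lay at 110288186 to 110288660. KLF9 (chromosome 1) had a start-codon peak at 223748010 to 223748226, a coding peak at 223747235 to 223747634 and a stop-codon peak at 223723295 to 223723669. KLF2 (chromosome 2) carried a single stop-codon peak at 61270814 to 61271238, and KLF11 (chromosome 3) a single coding peak at 126425781 to 126426430. KLF13 (chromosome 1) had the most peaks, 7: start-codon peaks at 143540401 to 143540500 and 143539776 to 143540100, and a peak at 143527358 to 143527457 that is listed as 5′ UTR. This 5′ UTR peak is listed with a span of 143498803 to 143528701, and the other KLF13 peaks with one of 143493527 to 143540563. The stop codon of KLF13 lay in the peak at 143498302 to 143499051, followed by 3′ UTR peaks at 143497802 to 143498101, 143494127 to 143494351 and 143493677 to 143494026.

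Of the 29 KLF peaks, 8 (27.6%) listed a stop codon, each on a different gene, against 24.2% of all peaks. A start codon was listed for 9 (31%), on 6 genes, against 20.8% of all peaks. The median span was 375 bp, against 300 bp over all peaks, and the spans ran from 75 bp to 83124 bp. Reads were concentrated in few peaks. Pooled over the 12 libraries, and so weighted to the deeper libraries labelled input, the peak with the most counts held 98.7% of the peak counts of KLF10, 97.2% for KLF4, 83.1% for KLF5, 79.7% for KLF3 and 76.9% for KLF6. For KLF7 it held 61.6%, for KLF9 49.9% and for KLF13 41.9%, so the counts of these genes were spread over several peaks. In the OAA libraries labelled IP alone, the largest pooled peak averaged 65.3% for KLF5, 65.6% for KLF3, 64.3% for KLF6 and 25.3% for KLF13, where KLF13 peak 4 held more, at 33.2%.

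KLF peaks mostly held a larger share of the reads in libraries labelled input than in those labelled IP. One KLF peak (KLF13 peak 1) had too few counts to be tested. In OAA, 17 of 28 tested peaks were called higher in labelled input and 3 lower, where 34.1% of all tested peaks were called higher and 34.4% lower. In CON, 16 of 28 were called higher and 4 lower, where 33.9% and 34.2% of all tested peaks were called in those directions. In both treatments 16 peaks were called higher and 3 lower. The median peak ratio of the tested KLF peaks was 1.14 in OAA and 0.78 in CON, against 0.03 over all tested peaks in each. The filter on low counts passes a peak that is covered well in only some groups, so these counts describe the tested peaks. KLF13 peak 3 passed it through the CON libraries labelled input, and without that peak 16 of 27 were called higher in OAA and 15 of 27 in CON, with medians of 1.14 and 0.68.

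Among the factors that mostly activate transcription, KLF5 peak 2 lay over the start codon and coding sequence. It had the highest level of the KLF peaks in the libraries labelled input, ranked 65 in OAA and 64 in CON among all tested peaks. In the libraries labelled IP, KLF10 peak 3 had a higher level. Levels are counts in a peak relative to all reads in peaks, after scaling (CPM). KLF5 peak 2 had 1170, 1180 and 1280 CPM in the OAA libraries labelled input and 305, 295 and 331 CPM in the OAA libraries labelled IP. It had 1220, 1240 and 1190 CPM in the CON libraries labelled input and 335, 327 and 310 CPM in the CON libraries labelled IP. Labelled input and labelled IP lay far apart, and the peak ratio was 1.97 ± 0.06 in OAA (SE, adjusted p = 4.45e-22) and 1.91 ± 0.06 in CON (adjusted p = 9.31e-22). KLF5 peak 3, at the stop codon of the same gene, had a lower peak ratio of 0.44 ± 0.08 in OAA and 0.51 ± 0.08 in CON. By library size alone it stood at 0.17 in OAA (adjusted p = 0.0698) and 0.21 in CON (adjusted p = 0.027).

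KLF5 peak 1, at the start codon, ran the other way at low levels. It had 2.69, 2.68 and 1.66 CPM in the OAA libraries labelled input and 3.76, 5.08 and 3.54 CPM in the OAA libraries labelled IP. The CON values were 1.66, 1.55 and 2.32 CPM in libraries labelled input and 4.48, 3.00 and 6.04 CPM in those labelled IP. Labelled input lay below labelled IP in every library, and the peak ratio was -0.81 ± 0.39 in OAA (adjusted p = 0.0641) and -1.27 ± 0.40 in CON (adjusted p = 0.00567). The CON call was lost without the third CON library labelled IP (-1.01, adjusted p = 0.0525).

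KLF4 peak 2, which spans the gene from start to stop codon, had 612, 596 and 576 CPM in the OAA libraries labelled input and 153, 174 and 149 CPM in the OAA libraries labelled IP. CON gave 650, 611 and 622 CPM in libraries labelled input and 178, 165 and 180 CPM in those labelled IP. Every library labelled input was over every library labelled IP, and the peak ratio was 1.91 ± 0.07 in OAA (adjusted p = 1.34e-20) and 1.85 ± 0.07 in CON (adjusted p = 2.83e-20). The 5′ UTR peak of KLF4 had peak ratios of 1.40 ± 0.24 in OAA and 1.36 ± 0.24 in CON.

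KLF2 peak 1, at the stop codon, had 17.5, 16.1 and 14.5 CPM in the OAA libraries labelled input and 3.96, 7.32 and 4.59 CPM in the OAA libraries labelled IP. Under CON the peak had 17.6, 17.0 and 18.7 CPM in libraries labelled input and 4.25, 4.00 and 6.53 CPM in those labelled IP. At these lower levels labelled input and labelled IP still did not overlap, with peak ratios of 1.60 ± 0.23 in OAA (adjusted p = 2.46e-07) and 1.86 ± 0.23 in CON (adjusted p = 2.33e-08).

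KLF7 peak 1, the long coding peak, had 126, 116 and 126 CPM in the OAA libraries labelled input and 40.4, 35.4 and 42.3 CPM in the OAA libraries labelled IP. In CON it had 122, 127 and 110 CPM in libraries labelled input and 33.4, 43.6 and 38.2 CPM in those labelled IP. Its peak ratio was 1.64 ± 0.11 in OAA (adjusted p = 8.88e-15) and 1.64 ± 0.11 in CON (adjusted p = 1.26e-14), with no overlap between labelled input and labelled IP. The stop-codon peak of KLF7 stood close to it, at 1.52 ± 0.11 in OAA and 1.55 ± 0.11 in CON.

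KLF6 differed along its length. KLF6 peak 2, in coding sequence, had 489, 450 and 492 CPM in the OAA libraries labelled input and 287, 291 and 296 CPM in the OAA libraries labelled IP. The CON values were 479, 466 and 492 CPM in libraries labelled input and 306, 291 and 302 CPM in those labelled IP. Its peak ratio was 0.71 ± 0.07 in OAA (adjusted p = 3.1e-11) and 0.68 ± 0.07 in CON (adjusted p = 9.7e-11), with labelled input the higher in every library.

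In the 3′ UTR, KLF6 peak 3 had 29.6, 25.1 and 31.8 CPM in the OAA libraries labelled input and 69.3, 64.6 and 77.7 CPM in the OAA libraries labelled IP. CON gave 27.9, 25.9 and 26.6 CPM in libraries labelled input and 69.6, 72.6 and 75.4 CPM in those labelled IP. Here labelled IP was the higher in every library, and the peak ratio was -1.29 ± 0.11 in OAA (adjusted p = 1.21e-11) and -1.44 ± 0.11 in CON (adjusted p = 1.28e-12). KLF6 peak 1, from 5′ UTR into coding sequence, was not called at 0.07 ± 0.09 in OAA and 0.09 ± 0.09 in CON, and scaling by library size alone put it at -0.20 in OAA (adjusted p = 0.0475) and -0.21 in CON (adjusted p = 0.0366).

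KLF3, the CtBP-recruiting repressor, also carried peaks on both sides of the typical peak. KLF3 peak 3, at the stop codon, had 117, 112 and 111 CPM in the OAA libraries labelled input and 62.7, 63.6 and 69.2 CPM in the OAA libraries labelled IP. Under CON the peak had 114, 116 and 112 CPM in libraries labelled input and 63.8, 51.8 and 69.9 CPM in those labelled IP. Labelled input lay above labelled IP in every library, and the peak ratio was 0.80 ± 0.10 in OAA (adjusted p = 1.27e-08) and 0.89 ± 0.10 in CON (adjusted p = 1.98e-09).

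KLF3 peak 2, in coding sequence, had 5.13, 4.81 and 3.15 CPM in the OAA libraries labelled input and 17.4, 19.3 and 17.1 CPM in the OAA libraries labelled IP. In CON it had 6.84, 4.99 and 4.63 CPM in libraries labelled input and 14.6, 13.0 and 16.0 CPM in those labelled IP. Labelled IP was the higher in every library, with peak ratios of -2.03 ± 0.23 in OAA (adjusted p = 2e-09) and -1.39 ± 0.23 in CON (adjusted p = 2.6e-06). The 3′ UTR peak of KLF3 was not called, at 0.23 ± 0.17 in OAA and 0.10 ± 0.17 in CON, and neither was its 5′ UTR peak, at 1.33 ± 0.65 in OAA and 0.52 ± 0.60 in CON.

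Among the factors known to repress through SIN3A, KLF10 stood apart from the other 3 genes. KLF10 peak 3, at the stop codon, had 409, 414 and 404 CPM in the OAA libraries labelled input and 392, 389 and 410 CPM in the OAA libraries labelled IP. The CON values were 426, 440 and 431 CPM in libraries labelled input and 418, 389 and 387 CPM in those labelled IP. Labelled input and labelled IP overlapped in OAA and were close but separate in CON, and the peak was not called, at 0.04 ± 0.06 in OAA (adjusted p = 0.541) and 0.12 ± 0.06 in CON (adjusted p = 0.0944). The direction depended on the scaling, with -0.23 in OAA (adjusted p = 0.00141) and -0.18 in CON (adjusted p = 0.00914) by library size alone, and 0.21 in CON by DESeq2 (adjusted p = 0.00275). KLF10 peak 2, at start codon and coding sequence, was called lower at -1.19 ± 0.29 in OAA and -0.92 ± 0.29 in CON, at means of 3.17 ± 0.317 CPM in the OAA libraries labelled input and 7.27 ± 1.55 CPM in the OAA libraries labelled IP, with 3.62 ± 0.721 and 6.79 ± 0.909 CPM in CON (SD, n = 3). KLF10 peak 1, at the start codon, had few reads and was not called, at 1.23 ± 0.78 in OAA and -0.03 ± 0.64 in CON.

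KLF11 peak 1, in coding sequence, had 22.4, 26.6 and 23.2 CPM in the OAA libraries labelled input and 11.5, 10.8 and 9.59 CPM in the OAA libraries labelled IP. CON gave 22.5, 26.6 and 24.3 CPM in libraries labelled input and 6.49, 10.0 and 8.70 CPM in those labelled IP. The peak ratio was 1.18 ± 0.18 in OAA (adjusted p = 5.68e-07) and 1.53 ± 0.18 in CON (adjusted p = 1.02e-08), and labelled input did not overlap labelled IP.

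KLF9 peak 3, at the stop codon, had 58.0, 61.9 and 66.7 CPM in the OAA libraries labelled input and 20.2, 14.4 and 30.4 CPM in the OAA libraries labelled IP. Under CON the peak had 65.8, 68.9 and 58.8 CPM in libraries labelled input and 23.7, 24.0 and 17.4 CPM in those labelled IP. Its peak ratio was 1.52 ± 0.16 in OAA (adjusted p = 7.39e-10) and 1.56 ± 0.16 in CON (adjusted p = 5.37e-10), and the coding peak of KLF9 stood at 1.57 ± 0.14 in OAA and 1.75 ± 0.14 in CON.

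The start-codon peak of KLF9, KLF9 peak 1, was weakly covered, with 5.23, 5.31 and 2.63 CPM in the OAA libraries labelled input and 1.58, 1.22 and 3.13 CPM in the OAA libraries labelled IP. In CON it had 3.82, 3.97 and 3.72 CPM in libraries labelled input and 0.224, 0.40 and 1.93 CPM in those labelled IP. Labelled input and labelled IP overlapped in OAA and not in CON, and the peak ratio was 1.15 ± 0.45 in OAA (adjusted p = 0.0227) and 2.22 ± 0.54 in CON (adjusted p = 0.00056). Its OAA call was lost without the first or the second OAA library labelled input (1.08 and 1.06) and without the first or the second OAA library labelled IP (1.01 and 0.89).

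The peaks of KLF13 differed among themselves. KLF13 peak 5, in the 3′ UTR, had 91.7, 100 and 87.8 CPM in the OAA libraries labelled input and 26.5, 23.0 and 22.3 CPM in the OAA libraries labelled IP. The CON values were 97.0, 92.2 and 91.7 CPM in libraries labelled input and 22.4, 23.0 and 20.1 CPM in those labelled IP. Labelled input lay far above labelled IP, with peak ratios of 1.96 ± 0.11 in OAA (adjusted p = 3.95e-16) and 2.10 ± 0.11 in CON (adjusted p = 1.4e-16). The stop-codon peak beside it, KLF13 peak 4, had 1.14 in OAA and 1.36 in CON, whereas the next 3′ UTR peaks had -0.19 and 0.52 in OAA and 0.28 and 0.29 in CON. The start-codon peak 2 of KLF13 had 0.43 in OAA and -0.08 in CON and was not called. Of the 3′ UTR peaks beyond peak 5, only KLF13 peak 7 was called, in OAA (adjusted p = 0.00591), and without the first OAA library labelled IP it was not (0.34, adjusted p = 0.0848).

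Near the limit of detection, KLF13 peak 3 had 0.207, 0.711 and 0.457 CPM in the OAA libraries labelled input and no read in the OAA libraries labelled IP. CON gave 1.41, 1.15 and 1.64 CPM in libraries labelled input and 0, 0.40 and 0.242 CPM in those labelled IP. Its counts summed over replicates were 25 in labelled input and 0 in labelled IP for OAA. With labelled IP set to a floor of 3 counts over the group, labelled input was 2.23-fold higher. This floor value leaves out counting error in the 25. For CON they were 79 and 3, a ratio of 6.46 with a 95% counting interval of 2.13 to 32, which covers counting error only. Since its high group let it pass the filter, these values are a description. With this peak at its floor value, the median over the tested KLF peaks in OAA was 1.15. The untested KLF13 peak 1 had 37 counts in labelled input and 3 in labelled IP in OAA, a ratio of 3.31 (1.05 to 16.8), and 25 and 3 in CON, a ratio of 2.04 (0.624 to 10.6).

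**Figure D2:**
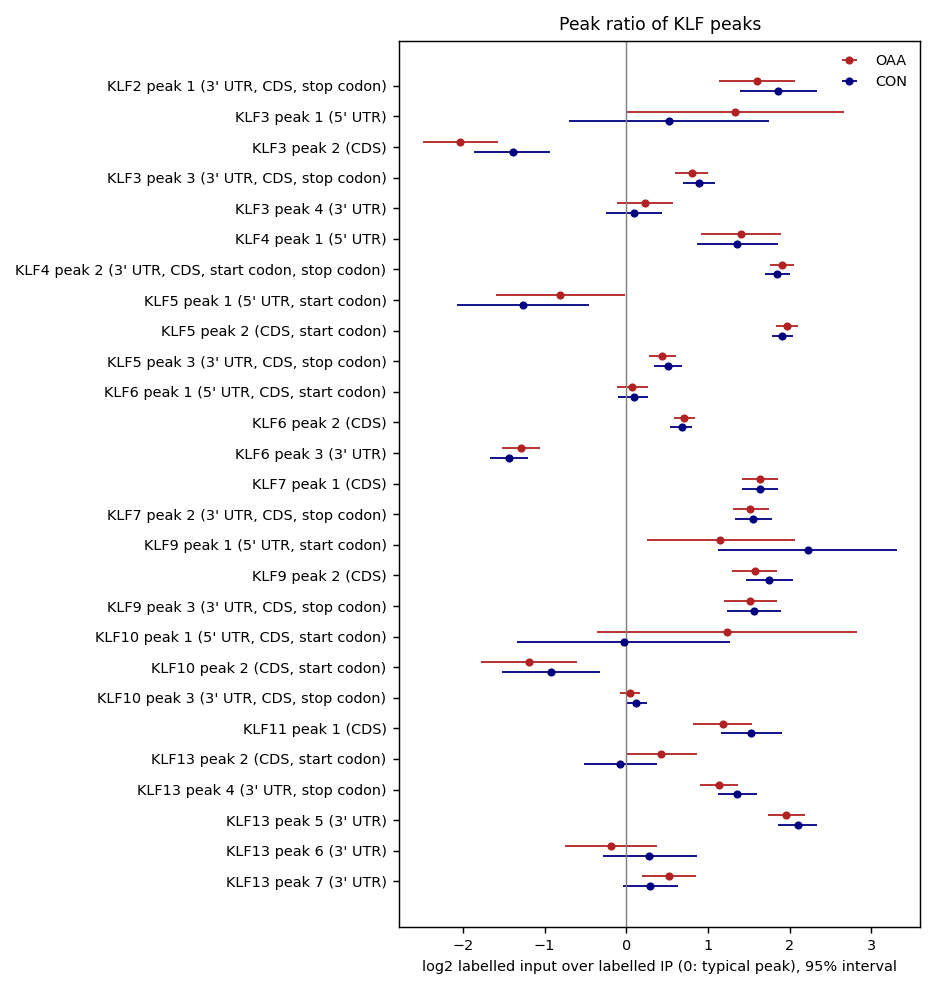
Peak ratio (log2 of labelled input over labelled IP, 0 for the typical peak) of 27 KLF peaks in OAA and CON, with 95% intervals from the edgeR fit. KLF13 peak 1 (not tested) and KLF13 peak 3 (no read in the OAA libraries labelled IP) are left out. Points run from -2.03 for KLF3 peak 2 in OAA to 2.22 for KLF9 peak 1 in CON.

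By listed position, the 8 tested peaks with a stop codon had a median peak ratio of 1.33 in OAA and 1.46 in CON, with 7 called higher and 0 lower in each, KLF10 peak 3 being the exception. Of all 5944 tested peaks with a stop codon, 46% were called higher and 32.1% lower in OAA, with a median of 0.31, and 46.3% and 32% in CON, with a median of 0.31. The 5 peaks in coding sequence alone had medians of 1.18 in OAA and 1.53 in CON, with 4 called higher and 1 lower (KLF3 peak 2) in each. Over all tested peaks of this position, 32.7% were called higher and 37.1% lower in OAA, with a median of -0.04, and 32.7% and 36.4% in CON, with a median of -0.05. The 7 peaks with a start codon and no stop codon had medians of 0.43 in OAA and -0.03 in CON, with 2 called higher in each and 1 lower in OAA and 2 lower in CON. All tested peaks of this kind gave 25.1% higher and 35.2% lower in OAA (median -0.16) and 24.7% and 35% in CON (median -0.17). In the 3′ UTR alone, 5 peaks had medians of 0.23 in OAA and 0.28 in CON, with 2 called higher in OAA and 1 in CON, and KLF6 peak 3 lower in each. Among all tested peaks in the 3′ UTR alone, 27% were higher and 41.5% lower in OAA (median -0.27) and 26.4% and 41.9% in CON (median -0.29). The 3 peaks in 5′ UTR alone had medians of 1.40 in OAA (1.33 with KLF13 peak 3 at its floor value) and 1.36 in CON. KLF4 peak 1 and KLF13 peak 3 were the 2 called higher in each, KLF13 peak 3 as a description only. Of all 1753 tested peaks in 5′ UTR alone, 35.4% were called higher and 22.5% lower in OAA (median 0.43) and 34.1% and 22% in CON (median 0.33). Differences between these positions were not tested.

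Summed over all peaks of a gene, 9 of the 10 KLF genes were called higher in labelled input in OAA and 1 lower, where 38.7% of 9097 genes were called higher and 38% lower. In CON 9 were called higher and 0 lower, where 38.9% and 37.8% of genes were called in those directions. The sums were scaled by TMM on their own, so their 0 is the typical gene and differs from the 0 of the peak ratios. KLF2, with a single peak, had 1.60 by peak and 1.38 as a summed ratio in OAA. KLF4 had the highest summed ratio in OAA, 1.67 ± 0.07, with 1.61 ± 0.07 in CON. KLF2 had 1.38 ± 0.22 in OAA and 1.64 ± 0.23 in CON, and KLF7, KLF5 and KLF9 had 1.31 to 1.37 in OAA and 1.35 to 1.44 in CON. KLF13 had 0.96 ± 0.08 in OAA and 1.01 ± 0.08 in CON, and KLF11 had 0.96 ± 0.17 in OAA and 1.31 ± 0.18 in CON. KLF3 had 0.25 ± 0.08 in OAA and 0.34 ± 0.08 in CON, and KLF6 had 0.19 ± 0.05 in OAA and 0.15 ± 0.05 in CON. By library size alone, KLF6 stood at 0.09 in OAA and 0.04 in CON, and KLF3 at 0.15 in OAA, and these were not called. Without the second CON library labelled IP, KLF6 was not called in CON either (0.14, adjusted p = 0.0556), which left 8 genes called higher there. KLF10 was the lowest gene, at -0.19 ± 0.06 in OAA (adjusted p = 0.00386) and -0.12 ± 0.06 in CON (adjusted p = 0.0549). In CON it was called lower with treatment and replicate number as a block, without the third CON library labelled IP, and by library size alone (-0.24, adjusted p = 0.000369). These calls are against the typical gene. Against the typical peak, KLF10 peak 3, with 98.7% of the gene's peak counts, was not called with TMM (0.04 in OAA and 0.12 in CON). Across the 10 genes, Spearman's rho between FPKM and the summed ratio was -0.16 in OAA and -0.43 in CON, a description over genes that share the libraries labelled IP in both measures.

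Within a gene, comparing a peak with all peaks of its gene removes the level of the transcript and the scaling of the library. Of 26 KLF peaks on genes with several tested peaks, 5 were called higher in labelled input relative to their gene and 11 lower, where 25.7% of 17198 such peaks were called higher and 36.5% lower. This comparison was added after the data had been seen and used both treatments together. KLF5 peak 2 took 84.6 ± 0.239% of the gene's peak counts in the OAA libraries labelled input and 65.3 ± 0.993% in the OAA libraries labelled IP, with 84.5 ± 0.831% and 67.0 ± 1.79% in CON (SD, n = 3). The stop-codon peak of KLF5 took the converse share, 15.3% in the OAA libraries labelled input and 33.8% in the OAA libraries labelled IP, with 15.4% and 32.1% in CON. Relative to the gene, peak 2 stood at 0.35 (adjusted p = 2.01e-07) and peak 3 at -1.10 (adjusted p = 1.1e-23), on the log2 scale.

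KLF6 peak 3, in the 3′ UTR, took 4.78 ± 0.345% of the gene's peak counts in the OAA libraries labelled input and 15.5 ± 1.23% in the OAA libraries labelled IP, with 4.44 ± 0.138% and 15.7 ± 0.761% in CON. Its value relative to the gene was -1.76 on the log2 scale (adjusted p = 1.43e-28), the smallest p among the KLF peaks. KLF3 peak 2 took 3.16 ± 0.7% in the OAA libraries labelled input and 18.1 ± 1.28% in the OAA libraries labelled IP, with 3.95 ± 0.873% and 15.4 ± 0.236% in CON, a value of -2.23 (adjusted p = 3.71e-20). In KLF13 the 3′ UTR peak 5 took 43.1 ± 0.418% in the OAA libraries labelled input and 25.3 ± 4.23% in the OAA libraries labelled IP, with 44.6 ± 1.64% and 24.5 ± 2.27% in CON, a value of 0.82 (adjusted p = 1.27e-13). The 3′ UTR peaks 6 and 7 of KLF13 stood at -1.16 and -0.80, opposite to peak 5.

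The other KLF peaks called higher relative to their gene were KLF3 peak 3 at 0.33, KLF6 peak 2 at 0.30 and the weakly covered KLF13 peak 3, which passed the filter through 1 group and is given as a description. Further peaks called lower were KLF5 peak 1 at -2.62, KLF10 peak 2 at -1.13, KLF13 peak 2 at -1.03, KLF4 peak 1 at -0.48, KLF3 peak 4 at -0.35 and KLF6 peak 1 at -0.31. No peak of KLF7 or KLF9 was called relative to its gene. KLF7 peak 1 took 62.5 ± 2.13% of the gene's counts in the OAA libraries labelled input and 60.5 ± 1.71% in the OAA libraries labelled IP, with 61.0 ± 1.92% and 59.4 ± 2.63% in CON.

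**Figure D3:**
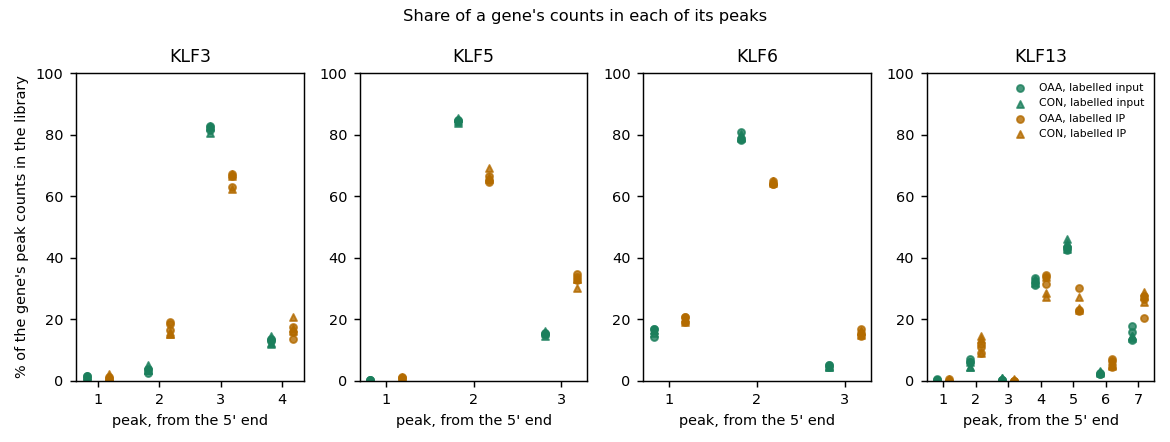
Share of a gene's peak counts in each of its peaks (percent, each point a library) for KLF3, KLF5, KLF6 and KLF13, with peaks numbered from the 5′ end and labelled input left of labelled IP. Circles are OAA and triangles CON. Labelled input and labelled IP are apart at KLF5 peak 2, with means of 84.6% and 65.3% in OAA.

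Between OAA and CON, no KLF peak was called. In the libraries labelled input, 0 of 28 tested peaks were called by edgeR, with 1 at an unadjusted p under 0.05, and DESeq2 called 0. Of all tested peaks, 0.00828% were called higher in OAA and 0.00414% lower, which is 2 peaks and 1 peak. In the libraries labelled IP, 0 of 28 were called by edgeR or DESeq2 and 0 had an unadjusted p under 0.05, with 0% of all tested peaks called in either direction. For the change of the peak ratio with OAA, 0 of 28 were called by either tool, 0 had an unadjusted p under 0.05, and 0% of all tested peaks were called higher or lower. The medians over the KLF peaks were -0.01 in labelled input, -0.00 in labelled IP and -0.02 for the change of the ratio.

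The peak with the unadjusted p under 0.05 was KLF13 peak 3, with counts of 4, 13 and 8 in the OAA libraries labelled input, against 28, 17 and 34 in the CON libraries labelled input. The groups did not overlap, and since the CON libraries labelled input let this peak pass the filter, its counts are a description. In the libraries labelled IP this peak had 0 counts in OAA and 3 in CON. KLF13 peak 2, at the start codon, had 12.8, 13.8 and 14.4 CPM in the OAA libraries labelled input, against 9.21, 9.16 and 13.0 CPM in the CON libraries labelled input (log2 difference 0.38, adjusted p = 0.896). At KLF10 peak 3, every OAA library labelled input was below every CON one in the values given above, at a log2 difference of -0.08 (adjusted p = 0.966). At KLF3 peak 2, every OAA library labelled IP was above every CON one. How often 3 against 3 libraries separate over all peaks was not counted, so these separations are a description.

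For the change of the peak ratio, KLF3 peak 2 had the lowest p, with -0.64 on the log2 scale (95% interval -1.28 to 0.01, adjusted p = 0.999). In the libraries labelled IP, KLF13 peak 4 had the lowest p (log2 difference 0.26, 95% interval -0.00 to 0.53, adjusted p = 1). In the 21 KLF peaks with a mean of at least 10 CPM, OAA over CON ran from -0.33 to 0.38 in labelled input, with 95% intervals between -0.78 and 0.77. In labelled IP they ran from -0.13 to 0.33, with intervals between -0.61 and 0.77. For KLF5 peak 2 the interval was -0.13 to 0.12 in labelled input and -0.20 to 0.07 in labelled IP, and for KLF4 peak 2 it was -0.21 to 0.06 and -0.28 to 0.02. The median half-width of the 95% intervals over the 28 tested peaks was 0.29 in labelled input and 0.38 in labelled IP. Differences smaller than these were mostly not detectable. The intervals are unadjusted, while a call needed an adjusted p below 0.05 over all tested peaks. Larger differences could thus go uncalled too, as at KLF13 peak 2 in labelled input (0.38, adjusted p = 0.896 by edgeR).

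**Figure D4:**
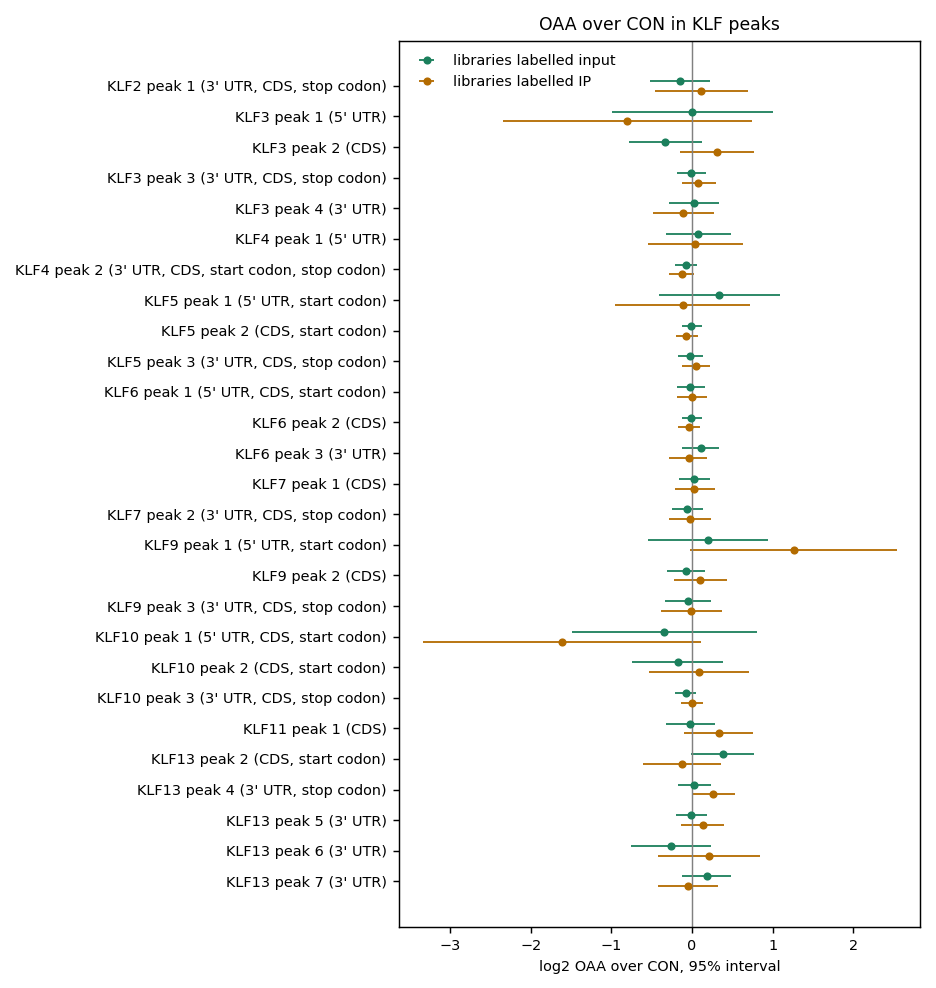
OAA over CON (log2) for 27 KLF peaks in libraries labelled input and libraries labelled IP, with 95% intervals from the edgeR fit. KLF13 peak 1 (not tested) and KLF13 peak 3 (no read in the OAA libraries labelled IP) are left out. The intervals of all 27 peaks take in 0, and the widest belong to peaks with few reads, such as KLF10 peak 1.

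In the authors' deposited table, which gives one log2 ratio per peak and treatment, the 29 KLF peaks had medians of 5.14 in OAA and 4.78 in CON, against 4.04 and 3.97 over all peaks. Each KLF peak was above 0 there in OAA and in CON. The lowest were KLF3 peak 2 in OAA, at 1.93, and KLF6 peak 3 in CON, at 2.44. Peaks called lower here are thus lower than the typical peak, whose ratio is not 0 in that table. The lowest p-value for OAA against CON among the KLF peaks in the authors' deposited table was 0.153, for KLF13 peak 2, and 0 of the 29 were under 0.05, against 670 of 24931 peaks.

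Genes around the family were read from lists. Of 17 other KLF and SP genes, SP factors being zinc finger relatives that bind the same GC-rich elements, 13 were tested for the summed ratio, with 9 called higher and 1 lower in OAA and the same numbers in CON. The shares over all genes were those given above, 38.7% higher and 38% lower in OAA and 38.9% and 37.8% in CON. Their median was 1.46 in OAA and 1.56 in CON, against 0.03 over all genes. Of the 13, KLF1, KLF14, SP7, SP8 and SP9 were too low in FPKM to be tested there, and over the other 8 the median was 0.47 in OAA and 0.56 in CON. SP3 had 1.62 ± 0.09 in OAA and 1.63 ± 0.09 in CON, SP1 had 0.58 ± 0.06 and 0.62 ± 0.06, and KLF15 had 1.46 ± 0.12 and 1.56 ± 0.12. KLF16 was the gene called lower, at -0.54 ± 0.07 in OAA and -0.54 ± 0.07 in CON.

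Of 17 corepressors, coactivators and ubiquitin pathway proteins that act with KLF proteins, 14 were tested, with 8 called higher and 6 lower in OAA and in CON, and medians of 0.39 and 0.35. Of all genes 38.7% were called higher and 38% lower in OAA, and 38.9% and 37.8% in CON. USP10, a deubiquitinase, had 2.46 ± 0.07 in OAA and 2.38 ± 0.07 in CON. EP300, a histone acetyltransferase, had 1.13 ± 0.07 in both, and CTBP2, a corepressor, had 0.12 ± 0.05 in OAA and 0.20 ± 0.05 in CON. SMURF1, a ubiquitin ligase, had 0.74 ± 0.08 in OAA and 0.76 ± 0.08 in CON. These were named for their counts, and the 6 genes called lower had fewer. The lowest of those 6 was the deacetylase gene HDAC2, at -1.94 ± 0.15 in OAA and -1.99 ± 0.16 in CON.

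Of 22 genes known as KLF targets in epithelium or endothelium, 17 were tested, with 4 called higher and 10 lower in OAA and 4 higher and 9 lower in CON, and medians of -0.37 and -0.54, beside 38.7% higher and 38% lower of all genes in OAA and 38.9% and 37.8% in CON. THBD, the anticoagulant receptor thrombomodulin, had 2.51 ± 0.09 in OAA and 2.45 ± 0.09 in CON, and the growth factor receptor EGFR had 0.43 ± 0.05 and 0.48 ± 0.05. CDH1, which encodes E-cadherin, had -1.31 ± 0.06 in OAA and -1.24 ± 0.06 in CON, and the TGF-beta receptor gene TGFBR2 had -0.15 ± 0.05 and -0.10 ± 0.05. No gene of these lists was called between OAA and CON. In FPKM by limma, 8 other KLF and SP genes, 16 partners and 18 targets were tested, of which 1, 0 and 1 had an unadjusted p under 0.05. Their median log2 differences were 0.01, -0.04 and -0.04, against -0.01 over all genes tested.

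Epithelial markers led the FPKM values, with KRT8 at 391 FPKM in OAA and 401 FPKM in CON, EPCAM at 189 and 202 FPKM, and 7 of 10 listed markers at a mean of 1 FPKM or more. The intestinal factor CDX2 (0.0170 FPKM in OAA and 0.0303 FPKM in CON) and the brush-border protein VIL1 (0.218 and 0.273 FPKM) were near 0. Of 5 enterocyte markers with an entry, 2 averaged 1 FPKM or more, the sugar-digesting enzyme gene SI at 12.6 FPKM in OAA and 12.9 FPKM in CON and the apolipoprotein gene APOA1 at 4.5 and 4.63 FPKM. The enterocyte markers summed to 15.9 to 19.8 FPKM in OAA and 17.1 to 19.1 FPKM in CON. For KLF2, known from endothelium and T cells, the markers of those cells were read. All 3 endothelial markers with an entry averaged 1 FPKM or more, with CDH5 at 3.72 FPKM in OAA and 3.85 FPKM in CON and a summed level of 6.19 to 6.9 FPKM in OAA and 5.52 to 6.73 FPKM in CON. Of 4 leukocyte markers none reached 1 FPKM, PTPRC was listed at 0 in all 6 libraries, and their sum was 0.985 to 1.14 FPKM in OAA and 0.831 to 1.53 FPKM in CON. How these marker levels relate to the KLF2 level in this cell line was not tested. Of 5 fibroblast markers none reached 1 FPKM, and DCN was listed at 0.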

How the data were processed

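The labels describe MeRIP-seq of IPEC-J2 cells with 3 numbered replicates at 25 µM and at 0 µM OAA. The authors' peak table gives, per the file headers, raw read counts per library in merged peaks, a log2 ratio for each treatment and the authors' p-value. The deposited gene table holds FPKM of the 6 libraries labelled IP. Bowtie2 and HISAT2 are named in the submitters' processing notes; what each did, the versions, the genome build and the strand setting were not given in the sources used here. Every library column matched a sample (0 unmatched).

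Counts of all peaks in the 12 libraries were fitted together with edgeR 4.0.16 (TMM scaling, default filter, quasi-likelihood F test, 4 group means) under R 4.3.3. A peak or gene was called at an adjusted p (Benjamini-Hochberg, over everything tested) below 0.05. TMM puts the typical peak at 0, so ratios are relative. Sums per gene were scaled by TMM separately, which puts the typical gene at 0. For FPKM, limma 3.58.1 with a trend was run on log2(FPKM + 1), keeping genes that reached 1 FPKM in 3 or more libraries. DESeq2 1.42.0, library size alone, no filter, a replicate block and leaving out each library were alternatives. Sums per gene used peaks under 1 gene. The comparison within genes used edgeR's diffSpliceDGE. Deposited starts count from 0 and are printed from 1. The fits of peak counts and of FPKM were also run on simulated data with planted changes. Simulated peak counts carried planted changes only in the OAA libraries labelled input. They did not hold the wide differences between labelled input and labelled IP seen here. The summed ratios, the comparison within genes and the replicate block were not run on simulated data.

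The members and lists were chosen with earlier results of these data known. All members are named, with every library's value for each gene's largest peak and for the 3 highest and 3 lowest peak ratios in CON, and up to 4 genes of each list, those with the most counts. Counts pooled over the 12 libraries are weighted to labelled input, so naming list genes by them favours genes high there. Since the protocol divides one RNA into both parts, libraries of one number within a treatment were taken as paired in the replicate block, while the reported values come from the fit without it. Deviations of such pairs correlated at r = 0.113, 0.0556 and 0.19 in OAA and at -0.0306, 0.0633 and 0.0164 in CON.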

Additional observations from a re-analysis of the deposited data

How the results depend on the processing

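The replicate block was the treatment and number for the ratios and their change, and the number alone for OAA over CON. With the block, 17 KLF peaks were called higher and 3 lower in OAA and 16 and 4 in CON, as without it. No KLF peak or KLF gene was called between OAA and CON. The block changed 1 KLF call among the comparisons run with it, with KLF10 called lower in CON among the summed ratios (1 gene, against 0). Library size alone also called 1 gene lower there, and it moved the median ratio of all peaks to -0.24 in OAA and -0.28 in CON. Under it, 6729 of all peaks were called higher and 9892 lower in OAA, against 8237 and 8295 with TMM, and 6516 higher and 10068 lower in CON, against 8181 and 8250. Of the KLF peaks, 14 were then called higher and 6 lower in OAA, and 16 and 6 in CON. KLF6 peak 1 turned to -0.20 in OAA and -0.21 in CON, and KLF10 peak 3 to -0.23 in OAA and -0.18 in CON. KLF5 peak 1 was called lower in OAA (-1.09), while the OAA calls of KLF5 peak 3 (0.17), KLF9 peak 1 (0.88) and KLF13 peak 7 (0.24) were lost. DESeq2 called 18 KLF peaks higher and 3 lower in OAA and 17 and 4 in CON, adding KLF13 peak 2 in OAA (0.51) and KLF10 peak 3 in CON (0.21).

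Leaving out each library in turn gave 15 to 17 peaks called higher and 3 lower in OAA, 15 to 16 higher and 3 to 4 lower in CON, 8 to 9 genes called higher in CON by the summed ratio, and 0 to 1 called lower, the 1 arising without the third CON library labelled IP. KLF13 peak 3 was not tested in any fit that left out a library labelled input, and its CON call (adjusted p = 0.0139) was lost without the first CON library labelled IP (adjusted p = 0.0729). Within genes 4 to 5 peaks were called higher and 9 to 11 lower. KLF3 peak 1 was called in OAA without the first OAA library labelled IP (2.03), KLF13 peak 2 in OAA without the first OAA library labelled input (0.54), and KLF10 peak 3 in CON without any 1 of the CON libraries labelled input (0.18 to 0.20). No alternative called a KLF peak or KLF gene between OAA and CON. The libraries labelled IP held the fewest reads and limit the ratios of weakly covered peaks. For DESeq2, all peaks gave 3 higher and 5 lower calls in labelled input, 0 and 0 in labelled IP, and 0 and 1 for the change of the ratio.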
